A study of Rattus norvegicus with 36 samples.

Results

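The comparison concerned the 2 highest absorbed doses of a study of radioiodine in the rat thyroid: 4 arrays labelled 4700 kBq, with an estimated thyroid dose of 3.0 Gy, against 4 arrays labelled 1300 kBq, with an estimated dose of 0.84 Gy. These 8 arrays were taken by their labels from 36 arrays, 1 per rat. All rats were adult male Sprague Dawley rats on standard chow, kept 4 to a cage. The rats of both groups were injected with 131I in a tail vein and were killed 24 h later. The 1300 kBq group was injected before the 4700 kBq group, and 4 mock-treated controls came after both. The order of injection and the dose therefore cannot be told apart in this comparison. The doses are group means estimated from the injected activity, not measured in each gland. The controls took no part in the test, and their levels are given only beside the genes described. The question was which transcripts separated 2 irradiated groups that differed in the injected activity.

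Iodine is concentrated by thyroid follicular cells through the sodium iodide symporter and bound to thyroglobulin, so the beta particles of 131I are emitted largely inside the follicles. DNA breaks stabilise the transcription factor p53, which induces genes of cell cycle arrest, apoptosis and repair, among them its own inhibitor Mdm2. The thyroid lies on the trachea and beside strap muscle and the parathyroid glands. RNA of an excised gland can therefore hold RNA of cartilage, epithelium and muscle.

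Levels are log2 intensities relative to the 75th percentile of the array, so that a level of 0 is the intensity that 75% of spots do not exceed. Levels of different probes are not comparable with each other. A transcript was called regulated at a Benjamini-Hochberg adjusted p under 0.01 with a fold change of at least 1.5, which is the threshold of the study.

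Follicular, C cell and parathyroid genes had low levels on 3 of the 8 arrays. The mean level of 17 genes of follicular cells was between 1.39 and 1.97 on 5 arrays, and it was -5.10 for 0.84 Gy rat 1, -3.72 for 0.84 Gy rat 2 and -3.43 for 3.0 Gy rat 3. Tg, the thyroglobulin gene, had levels of 7.05, 6.80, 4.11 and 6.94 in rats 1 to 4 at 3.0 Gy, against -2.83, 2.13, 7.43 and 6.85 at 0.84 Gy. For Pax8, a transcription factor of the follicular cell, the levels were 2.77, 3.31, -4.43 and 2.53 against -7.51, -5.51, 2.72 and 2.90. The same 3 rats were the lowest for both genes. They were also lowest for Calca, the calcitonin gene of the C cells, with -2.85 for 3.0 Gy rat 3, -5.79 and -2.67 for 0.84 Gy rats 1 and 2, and between 3.93 and 6.96 on the other arrays. Pth, the parathyroid hormone gene, was at 2.12, -7.81 and -4.94 in these 3 rats and between 6.14 and 6.95 in the others. Of the follicular genes, 16 of 17 were well above background on each of the other 5 arrays, against 8, 13 and 12 for 0.84 Gy rats 1 and 2 and 3.0 Gy rat 3. Among the controls, rat 3 also had low mean levels of the follicular (-3.28) and C cell (-5.25) genes. The control means given below therefore include both kinds of array. In bulk tissue, fewer cells of a type and less RNA per cell cannot be told apart.

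Other tissues also differed between rats of the same group. Genes of fast skeletal muscle were abundant on every array: the mean level of 12 genes was between 5.97 and 7.62 on 7 arrays and 3.58 for 3.0 Gy rat 2. Genes of squamous epithelium had a mean level of 0.61 for 0.84 Gy rat 3 and at most -4.03 on the other arrays, and Krt4, a keratin of such epithelium, was at 4.16 there and at most -2.93 elsewhere. Cartilage genes were highest for 0.84 Gy rat 2, at a mean level of -0.61, and genes of erythroid cells for 3.0 Gy rat 3, at 1.96. Over all probes, the array of 3.0 Gy rat 3 was most similar to that of 0.84 Gy rat 1, with r = 0.982 across probes, and that of 3.0 Gy rat 4 to that of 0.84 Gy rat 4, with r = 0.988.

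**Figure D1:**
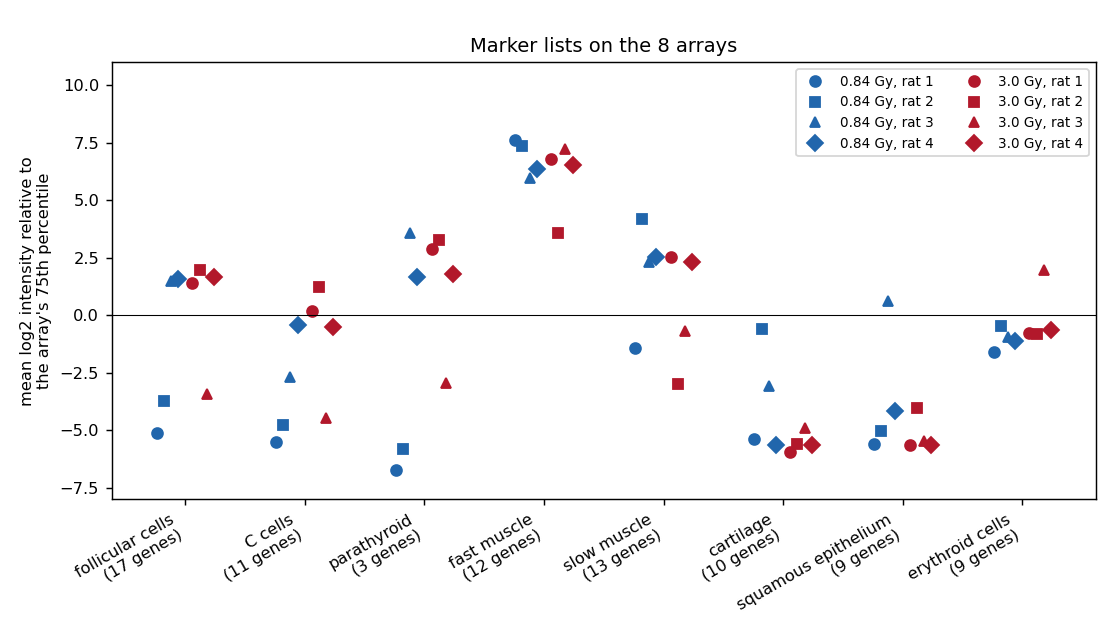
Mean log2 level (0 is the 75th percentile of an array) of 8 lists of tissue marker genes on each of the 8 arrays, with 1 point per rat and the number of genes under each list. The follicular, C cell and parathyroid lists were low for 0.84 Gy rats 1 and 2 and 3.0 Gy rat 3, the C cell list also for 0.84 Gy rat 3, and fast muscle for 3.0 Gy rat 2 only.

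Given this split, results for all 8 arrays are followed below, for most genes and lists, by the value on the 5 arrays that remained without these 3. The 5 arrays are 3.0 Gy rats 1, 2 and 4 and 0.84 Gy rats 3 and 4. The choice of these 5 arrays was made after the levels had been seen.

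No transcript was regulated between 3.0 and 0.84 Gy. In the limma fit, 0 of 30367 probes passed at an adjusted p under 0.01 or under 0.05, and the smallest adjusted p was 0.998. At an unadjusted p under 0.05, 334 probes (1.1%) passed, 45 of them (0.148%) with higher and 289 (0.952%) with lower levels at 3.0 Gy. A share of about 0.05 of probes without any difference would pass this limit, so fewer probes passed than the limit itself allows. The shares of all probes given beside the lists below are thus low ones. An unadjusted p under 0.01 with a fold change of at least 1.5 held for 55 probes, of which 8 (0.0263% of all probes) were higher and 47 (0.155%) lower at 3.0 Gy. Of the 47 lower probes, 28 were not well above background on any 3.0 Gy array. Of all 55, 15 were well above background on none of the 8 arrays and 14 on all 8. The levels of the groups did not overlap for 34 probes (0.112%) that were higher and 186 (0.613%) that were lower at 3.0 Gy. The study's threshold was thus not reached anywhere, and the genes named below differ at unadjusted p-values at most.

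The spread between rats was large beside the differences. The median SD over all probes was 0.52 at 3.0 Gy and 0.60 at 0.84 Gy, and without 3.0 Gy rat 3 it was 0.32 at 3.0 Gy. The difference was above 0 for 36.2% of probes and for 53.6% on the 5 arrays. The median difference of all probes was -0.11, and it was 0.02 on the 5 arrays. With quantile normalization this median was 0.00, so a list with a median near -0.11 did not stand apart from the array as a whole. The share of 36.2% above 0 likewise depends on the scaling, since a median of 0.00 leaves about as many probes above 0 as below. It also covers probes not well above background. Wherever it is set beside a list below, it is a rough reference only. An exact permutation test of 4 rats against 4 cannot give a two-sided p below 0.0286, which is the value for groups that do not overlap, and 3 rats against 2 cannot give one below 0.2. If the group labels made no difference, a share of about 0.0286 of probes would be without overlap, more than was found. A lack of overlap in a single gene is therefore not by itself a sign of a difference.

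**Figure D2:**
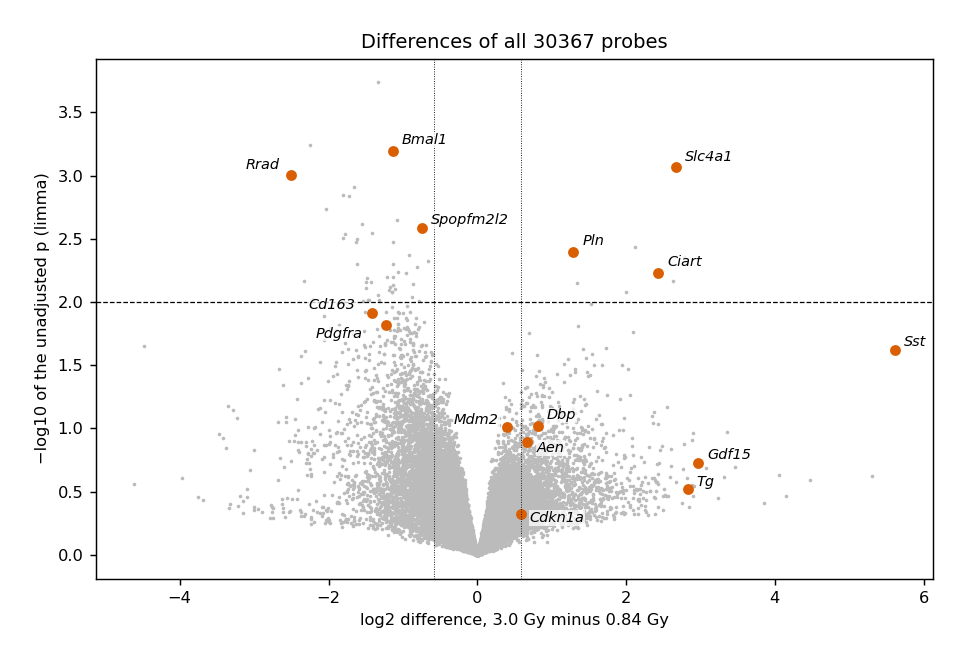
Log2 difference, 3.0 Gy minus 0.84 Gy, of each of 30367 probes against the -log10 of its unadjusted limma p, with genes of the text in orange. The dashed line marks an unadjusted limit of 0.01 and the dotted lines a fold change of 1.5. There are 8 probes past both limits on the right and 47 on the left, and none was regulated after adjustment.

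Genes of the circadian clock included the named gene with the smallest unadjusted p. The groups were injected in turn and killed 24 h later. Any difference in the time of day at death therefore cannot be told apart from the dose for these genes. The clock is a feedback loop in nearly every cell, in which Bmal1 pairs with Clock or Npas2 and drives the genes of their own repressors, the Per and Cry genes and Ciart, as well as output factors such as Dbp and Tef. Bmal1 itself is repressed and activated through sites for orphan nuclear receptors, called ROREs. The promoter stretches of a pair of genes are shown because Bmal1 and Ciart were the clock genes with an unadjusted p under 0.01, and because the best known clock motifs can be seen in them. They are RefSeq sequences of the rat assembly GRCr8, read 5′ to 3′ on the strand of the gene. The Ciart stretch is chr2:186112254-186112349 on the minus strand, ends 8 bases before the start of the gene, and has 3 E-boxes, CACGTG, in capitals. The Bmal1 stretch is chr1:176766252-176766326 on the plus strand, ends 2 bases before the start, and has the RORE letters TAGGTCA in capitals.
Ciart: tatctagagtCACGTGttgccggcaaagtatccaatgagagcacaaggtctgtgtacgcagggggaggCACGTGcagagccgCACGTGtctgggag
Bmal1: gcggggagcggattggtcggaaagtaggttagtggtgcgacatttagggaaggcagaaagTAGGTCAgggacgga

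In windows from 250 bases before to 50 bases after the start, searched on both strands, CACGTG was found in 6.65% of 27457 promoters and TAGGTCA in 2.6%. Of the 18 clock genes listed, 15 had a promoter entry. CACGTG was found in 4 of these (Ciart, Tef, Bhlhe40 and Bhlhe41), TAGGTCA in 1 (Bmal1) and the D-box letters TTATGTAA in 1 (Per2), against 0.881% of all promoters for the last. These matches describe the letters of the windows only.

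Bmal1, with the RORE shown above, had levels of -1.34, -2.06, -1.23 and -2.67 in rats 1 to 4 at 3.0 Gy, against -0.77, -0.65, -0.90 and -0.43 at 0.84 Gy. All 4 rats at 3.0 Gy were below all 4 at 0.84 Gy, and the levels were well above background on all 8 arrays. The log2 difference was -1.14 (SE 0.29, 95% CI -1.74 to -0.53, n = 4 and 4, limma p = 0.000633, adjusted p = 0.998, exact permutation p = 0.0286). On the 5 arrays it was -1.35. Rats of both groups shared 2 of the array slides: the first held 3.0 Gy rats 3 and 4 and 0.84 Gy rat 4, and the other held rat 2 of each group. The difference was -1.52 and -1.41 within these slides. Of these rats, 3.0 Gy rat 3 on the first and 0.84 Gy rat 2 on the other were low in follicular genes. Differences within slides, here and below, therefore also hold this tissue split, and on the other slide they compare 1 rat with 1. The mean level of the controls was -1.51 ± 0.65 (SD, n = 4), nearer to the 3.0 Gy mean of -1.82 ± 0.67 than to the 0.84 Gy mean of -0.69 ± 0.20. A second, dimmer Bmal1 probe gave a difference of -0.94 with overlapping groups.

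Ciart, a repressor of the Bmal1 and Clock pair with the 3 E-boxes shown above, had levels of -5.79, -4.34, -3.28 and -4.27 at 3.0 Gy, against -7.17, -3.99, -7.19 and -9.07 at 0.84 Gy. Only 0.84 Gy rat 2 was within the range of the 3.0 Gy rats, and it was the only rat of its group with Ciart well above background. The log2 difference was 2.43 (SE 0.81, 95% CI 0.77 to 4.10, limma p = 0.00585, adjusted p = 0.998, exact p = 0.114). Its size is inexact, since 3 of the 4 levels at 0.84 Gy were not well above background. Against the lowest signal well above background, Ciart was at least 3.81-fold higher at 3.0 Gy on the 5 arrays and at least 10.04-fold higher within the first shared slide. Within the other, which held 0.84 Gy rat 2, the difference was -0.35. The controls had a mean of -5.34 ± 1.85.

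No other gene of the loop passed the unadjusted p under 0.05. For Per2, a repressor, the 3.0 Gy rats had levels of -2.01, -1.39, -1.44 and -1.32 and the 0.84 Gy rats levels of -2.70, -1.85, -2.81 and -2.60. The groups overlapped through 1 rat of each, and the difference was 0.95 (95% CI -0.09 to 2.0, exact permutation p = 0.0571) and 1.14 on the 5 arrays. Dbp, an output factor of the clock, had levels of 4.89, 4.43, 6.18 and 4.90 at 3.0 Gy, against 5.46, 4.86, 3.68 and 3.14 at 0.84 Gy. Within each group, Dbp was higher in the rats low in follicular genes, and the difference was 0.82 (95% CI -0.15 to 1.78) on 8 arrays and 1.33 on 5. Tef, a relative of Dbp, was likewise highest in these rats, with differences of 0.40 and 0.83. Of the activator arm, Npas2 had a difference of -0.45 (95% CI -1.63 to 0.74) and of -0.15 at a second probe. The sign at the first probe turned without 3.0 Gy rat 3, which was at -4.05 beside -1.84 to -1.40 in the other 3.0 Gy rats. Cry1, a repressor listed with this arm because it peaks late, differed by -0.56, and Nfil3, a repressor of D-box genes also in this arm, by -0.78. Of 5 measured genes in the activator list, 1 passed the unadjusted p under 0.05, with the lower level at 3.0 Gy, and 1 of 10 among repressors and outputs did, with the higher level. The shares of all probes were 0.952% lower and 0.148% higher. The difference was above 0 for 1 of the 5 genes, Clock at 0.08, and for 5 of the 10, from -0.33 for Per1 to 2.43 for Ciart. On the 5 arrays it was above 0 for 0 and 9 genes, beside 36.2% and 53.6% of all probes on 8 and 5 arrays. The medians of these lists were -0.56 and 0.01, and on the 5 arrays -0.42 and 0.40.

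**Figure D3:**
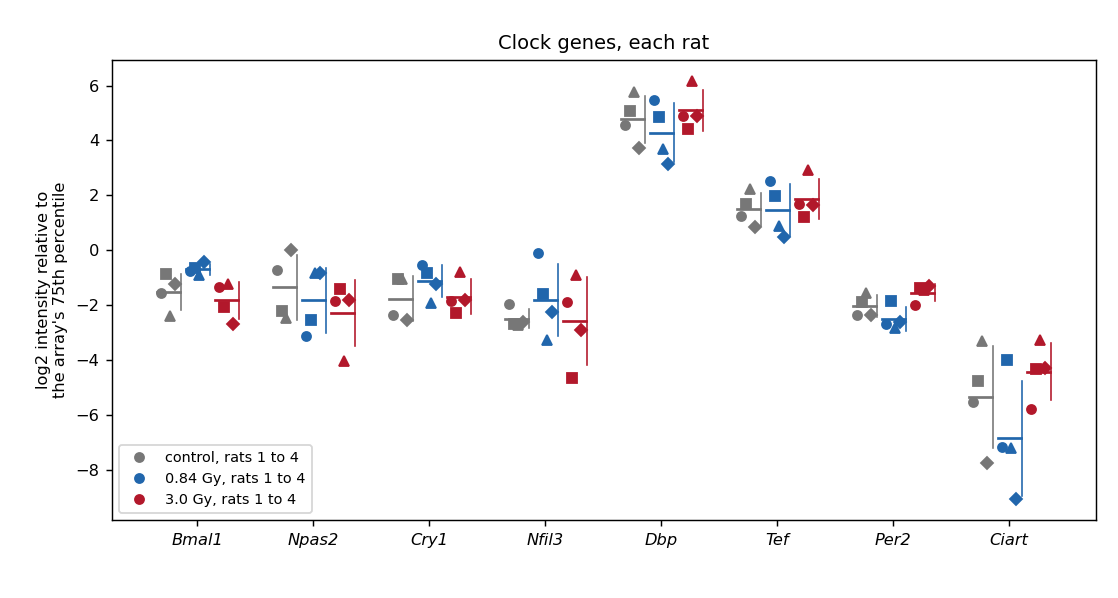
Log2 levels (0 is the 75th percentile of an array) of 8 clock genes in 4 control, 4 0.84 Gy and 4 3.0 Gy rats, with 1 marker shape per rat number (circle 1, square 2, triangle 3, diamond 4), a bar at the mean and a line of 1 SD to each side. Bmal1 lies at or below -1.23 in the 3.0 Gy rats and at or above -0.90 in the 0.84 Gy rats, without overlap.

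None of the 34 measured p53 target genes passed the unadjusted p under 0.05 between the doses, which 1.1% of all probes passed. The median difference was 0.51 over 13 genes of arrest and feedback, 0.58 over 11 of apoptosis and 0.07 over 10 of repair and metabolism. On the 5 arrays these medians were 0.18, 0.23 and 0.17. The difference was above 0 for 28 of the 34 genes on 8 arrays and for 26 on 5, against 36.2% and 53.6% of all probes. The lists were chosen for known p53 targets, and their counts are a description.

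Cdkn1a encodes p21, the inhibitor of cyclin-dependent kinases that p53 uses to arrest the cell cycle. Its levels were 4.92, 4.99, 0.99 and 4.55 at 3.0 Gy, against 2.35, 2.81, 3.99 and 3.97 at 0.84 Gy. At 3.0 Gy, the 3 rats with high follicular levels were above every rat at 0.84 Gy, and 3.0 Gy rat 3 was below them all. The difference was 0.58 (SE 0.80, 95% CI -1.07 to 2.24, exact p = 0.629), and it was 0.84 on the 5 arrays and -1.20 and 2.18 within the slides. A second probe for Cdkn1a gave -0.23 on 8 arrays, opposite in direction, and 0.069 on 5. The controls had a mean level of 1.45 ± 1.34, with the highest level, 3.25, in control rat 3.

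Mdm2, the ubiquitin ligase that removes p53, had levels of 1.30, 1.67, 1.11 and 0.85 at 3.0 Gy, against 1.06, 0.83, 0.58 and 0.86 at 0.84 Gy. Its levels on the 3 arrays low in follicular genes were within the range of the others, and the groups overlapped through 3.0 Gy rat 4. The difference was 0.40 (SE 0.23, 95% CI -0.08 to 0.88, limma p = 0.0971, exact p = 0.0857), 0.56 on the 5 arrays, 0.13 and 0.84 within the slides, and 0.39 by a second probe. All 8 irradiated rats were above the control mean of -0.14 ± 0.39.

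With the exception of Fas, the other p53 targets with a fold change of at least 1.5 were lowest in each group on the arrays low in follicular genes. Gdf15, a secreted stress cytokine, had levels of 2.71, 4.08, -4.79 and 3.75 at 3.0 Gy, against -6.85, -5.08, 2.61 and 3.21 at 0.84 Gy. Its difference of 2.97 had a 95% CI of -1.53 to 7.46 and was 0.61 on the 5 arrays. The size of the former is inexact, since Gdf15 was not well above background in 0.84 Gy rat 1. Ephx1, an epoxide hydrolase of xenobiotic metabolism, behaved alike, with 3.26, 3.19, -1.30 and 2.83 against -2.50, -1.74, 2.93 and 2.61. Its difference was 1.67 on 8 arrays and 0.32 on 5, and the control mean was -0.77 ± 0.54. Aen, an exonuclease of apoptotic cells, had levels of 3.08, 3.46, 1.30 and 3.26 at 3.0 Gy, against 1.60, 0.98, 2.76 and 3.06 at 0.84 Gy. Rats with high follicular levels were at 2.76 or more and the others at 1.60 or less, beside a control mean of 0.85 ± 0.23. The difference of Aen was 0.67 (95% CI -0.20 to 1.55) and 0.36 on the 5 arrays.

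Sesn2, a stress sensor that restrains mTORC1, differed by 0.86 on 8 arrays and 0.18 on 5. Plk2, a stress-induced polo-like kinase, differed by 0.66 and 0.18. Tp53inp1, a cofactor of p53 in apoptosis, differed by 0.82 and 0.48, and Zmat3, an RNA-binding target, by 0.60 and 0.36, with -0.39 by a second Zmat3 probe. These 4 genes kept the sign of the difference on the 5 arrays at a smaller size. Fas, the death receptor, differed by 0.61 (exact permutation p = 0.0571) and 0.63, with 0.38 by a second probe. Perp, a membrane protein of desmosomes and apoptosis, went from 2.17, of inexact size because it was not well above background in 0.84 Gy rat 1, to -0.15, and Dram1, of autophagy, from 0.66 to -0.27, so that the direction of these 2 rested on the 3 arrays.

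**Figure D4:**
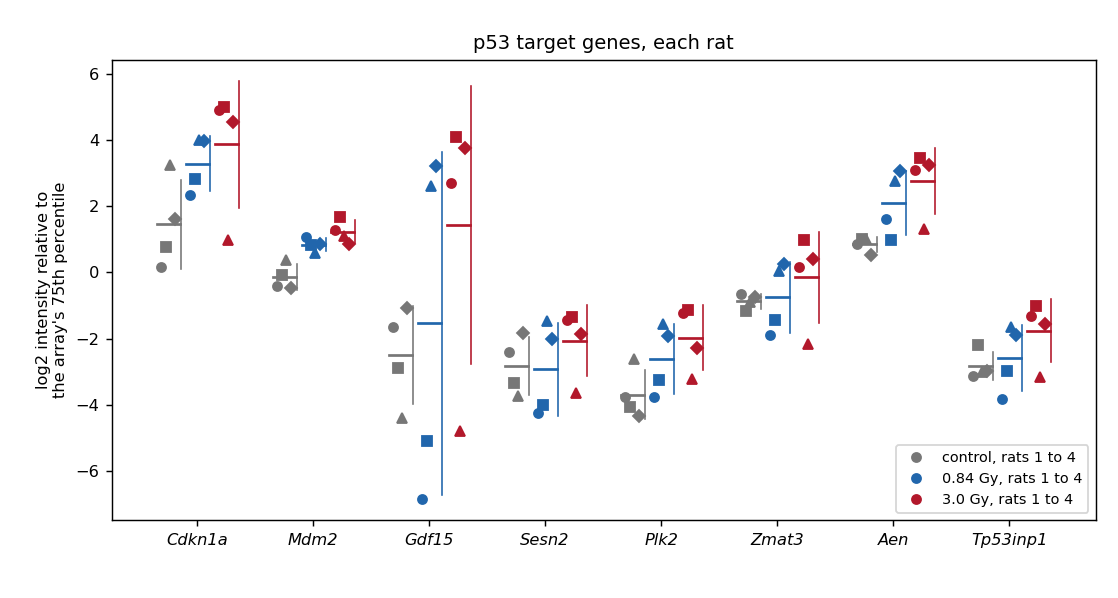
Log2 levels (0 is the 75th percentile of an array) of 8 p53 target genes in 4 control, 4 0.84 Gy and 4 3.0 Gy rats, with 1 marker shape per rat number (circle 1, square 2, triangle 3, diamond 4), a bar at the mean and a line of 1 SD to each side. The dose groups overlap for each gene, and 3.0 Gy rat 3 (red triangle) is the lowest of its group for each gene except Mdm2.

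By the rule for the array as a whole, 2 further genes with higher levels at 3.0 Gy were named, Slc4a1 and Pln. Slc4a1 encodes band 3, the anion exchanger of the red cell membrane. Its levels were -0.48, -0.26, -0.32 and -0.38 at 3.0 Gy, against -5.42, -3.76, -1.66 and -1.29 at 0.84 Gy. The 3.0 Gy rats lay within a narrow range above all 0.84 Gy rats, whose 2 lowest values belonged to the rats low in follicular genes. The difference was 2.68 (SE 0.71, 95% CI 1.21 to 4.14, limma p = 0.000861, adjusted p = 0.998, exact p = 0.0286), and it was 1.10 on the 5 arrays and 0.94 and 3.50 within the 2 shared slides. The control mean was -4.18 ± 0.42, below the means of both groups.

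All 9 erythroid genes had a difference above 0 on 8 arrays and 7 of 9 on 5, beside 36.2% and 53.6% of all probes, with medians of 0.60 and 0.20. Slc4a1 alone passed the unadjusted p under 0.05, as 0.148% of all probes did with higher levels. Alas2, the erythroid enzyme of haem synthesis, was at 3.78 for 3.0 Gy rat 3 and between -2.13 and 0.31 on the other 7 arrays. Ahsp, the chaperone of alpha globin, was at 1.62 for the same rat and at most -0.99 on the others, and its difference of 1.46 was -0.05 on the 5 arrays. Hba-a1, an alpha globin gene, differed by 0.23 (95% CI -1.01 to 1.48), and by 1.10 (95% CI -0.46 to 2.66) at a second probe. Slc4a1 of 3.0 Gy rat 3, at -0.32, did not share the high erythroid levels of that array.

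Pln encodes phospholamban, which inhibits the calcium pump of slow and cardiac muscle. Its levels were 0.97, 0.91, 0.19 and 1.01 at 3.0 Gy, against -1.34, -0.51, -0.03 and -0.20 at 0.84 Gy. All 3.0 Gy rats were above all 0.84 Gy rats, and the mean of the controls was -1.49 ± 0.33. The difference was 1.29 (SE 0.41, 95% CI 0.45 to 2.13, limma p = 0.004, adjusted p = 0.998, exact p = 0.0286), with 1.08 on the 5 arrays and 0.80 and 1.42 within slides.

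Pln was the only one of 13 slow muscle genes with a difference above 0 on 8 arrays and on 5, beside 36.2% and 53.6% of all probes. The median of that list was -1.40, and -1.22 on the 5 arrays. Csrp3, a muscle LIM protein, had levels of 2.61, -2.62, 0.59 and 1.67 at 3.0 Gy, against 2.32, 4.23, 3.94 and 4.69 at 0.84 Gy, a difference of -3.23 (95% CI -6.90 to 0.44, exact p = 0.0571) and of -3.76 on the 5 arrays. Ankrd1, a stretch-responsive repressor of muscle, had levels of -3.97, -4.99, -1.03 and -2.97 against -3.70, 0.33, 1.22 and 2.58, a difference of -3.35 on 8 arrays and -5.88 on 5. Only 0.84 Gy rat 1 overlapped with the 3.0 Gy rats for Ankrd1. Actc1, cardiac actin, was at 7.07 and 7.15 in 0.84 Gy rats 2 and 3 and between -0.61 and 2.0 in the other 6 rats. Mb, myoglobin, was at 2.84 for 3.0 Gy rat 2 and at least 6.37 elsewhere. In fast muscle, 0 of 12 genes had a difference above 0 (2 on the 5 arrays) and the median was -0.74 (-0.67), with Tnni2, troponin I of fast fibres, at 4.90 for 3.0 Gy rat 2 and at least 7.16 elsewhere. The part of muscle content in the differences of Pln, Csrp3 and Ankrd1 was not tested.

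Of the probes lower at 3.0 Gy without overlap, those of Bmal1, Rrad and Spopfm2l2 also met the rest of the rule for the array as a whole, an unadjusted p under 0.01 and signal well above background in all 4 rats of the higher group. Rrad encodes a small GTPase of the RGK family that restrains calcium channels and is abundant in muscle. Its levels were -3.70, -4.45, -2.24 and -4.04 at 3.0 Gy, against -1.33, -1.75, -2.13 and 0.80 at 0.84 Gy. The gap between the groups was narrow, from -2.24 to -2.13, and the 0.84 Gy rats were spread more widely. The difference was -2.51 (SE 0.68, 95% CI -3.90 to -1.12, limma p = 0.000995, adjusted p = 0.998, exact p = 0.0286), -3.40 on the 5 arrays, and -3.94 and -2.70 within slides. The control mean, -3.32 ± 0.52, was near that of the 3.0 Gy rats. Spopfm2l2 had a difference of -0.75 (SE 0.23, limma p = 0.0026, exact p = 0.0286), but 3 other probes of this gene gave 0.21, 0.34 and 0.68. The probe at 0.34 was well above background on all 4 arrays of each group. That at 0.21 was so on none, and that at 0.68 on 3 arrays at 3.0 Gy and 2 at 0.84 Gy. No direction is given for this gene.

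Of the 3 arrays low in follicular genes, 2 were in the 0.84 Gy group. The median difference of the 17 genes was 1.84 on 8 arrays and 0.08 on the 5 arrays. The difference was above 0 for 16 of the 17 on 8 arrays and for 13 on 5, beside 36.2% and 53.6% of all probes. Since the 3 arrays were set apart by these very genes, the change in their difference follows from that choice. Tg differed by 2.83 (95% CI -2.71 to 8.37) on 8 arrays and by -0.21 on 5, and Pax8 by 2.89 and 0.06. Duox2, the oxidase that supplies hydrogen peroxide for hormone synthesis, differed by 1.79 and 0.10. Hhex, a homeobox factor of the thyroid, was an exception in size, with 2.84, 2.80 and 3.84 in 3.0 Gy rats 1, 2 and 4 against 1.09 and 1.61 in 0.84 Gy rats 3 and 4. Its difference was 2.44 (95% CI -1.26 to 6.14) on 8 arrays and 1.81 on 5. None of the 17 genes passed the unadjusted p under 0.05, which 1.1% of all probes passed.

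All 11 C cell genes had a difference above 0 on 8 arrays and on 5, beside 36.2% and 53.6% of all probes, with medians of 2.06 and 1.49. Sst, the somatostatin gene, which a minority of C cells expresses, was the only one to pass the unadjusted p under 0.05, beside 0.148% of all probes with higher levels. Its levels were -0.35, 2.41, -8.23 and -1.43 at 3.0 Gy, against -7.86, -8.45, -8.52 and -5.23 at 0.84 Gy. It was well above background in 3 rats at 3.0 Gy and in 1 at 0.84 Gy, and 3.0 Gy rat 3 was among the lowest of all. The fitted difference was 5.62 (limma p = 0.0239, adjusted p = 0.998, exact p = 0.0857), of inexact size because most levels at 0.84 Gy were not well above background. The mean level of the list was also low in 0.84 Gy rat 3, at -2.67 against -0.50 to 1.22 on the other 4 of the 5 arrays. On these arrays 0.84 Gy rat 4 was therefore the only rat of its group without a low C cell level. Calca differed by 3.86 (95% CI -5.22 to 12.94) and by 1.49 on the 5 arrays, and by 4.15 and 3.13 at a second probe. The size of 4.15 is inexact, since that probe was well above background on only 3 arrays at 3.0 Gy and 2 at 0.84 Gy. Chga, chromogranin A of neuroendocrine granules, differed by 4.48 and 0.17. The 3 parathyroid genes had a median of 2.43 and of -0.04 on the 5 arrays. Pth differed by 5.30 and -0.07 and Casr, the calcium-sensing receptor, by 2.43 and 0.15. Of the 3 genes, only 1 was well above background in 0.84 Gy rat 1, and only 2 in 0.84 Gy rat 2 and 3.0 Gy rat 3. The differences of this list on 8 arrays thus rest in part on background signal, and their size is inexact.

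Several genes of connective tissue and of myeloid cells had lower levels at 3.0 Gy at unadjusted p-values, and none was regulated. All 10 fibroblast and matrix genes had a difference below 0, with a median of -1.04 (-1.43 on the 5 arrays) beside -0.11 (0.02) for all probes, and 3 of the 10 passed the unadjusted p under 0.05, beside 0.952% of all probes with lower levels. Pdgfra, the receptor that marks fibroblasts, had levels of -0.85, -2.50, -0.22 and -0.86 at 3.0 Gy, against -0.60, 0.40, 0.61 and 0.08 at 0.84 Gy. The groups overlapped through 0.84 Gy rat 1, and 3.0 Gy rat 2 was the lowest. The difference was -1.23 (SE 0.47, 95% CI -2.20 to -0.26, limma p = 0.0152, adjusted p = 0.998, exact p = 0.0571) and -1.75 on the 5 arrays. Col1a1 and Col3a1, fibrillar collagens, differed by -1.21 (95% CI -2.35 to -0.07) and -1.02 (95% CI -2.0 to -0.03), with 3.0 Gy rat 2 at 1.16 and 2.57 and the other rats at 2.32 or more and 3.78 or more. On the 5 arrays these differences were -1.49 and -1.43. A second Col1a1 probe gave -0.79 (95% CI -2.01 to 0.42). Rat 2 at 3.0 Gy also had the lowest fast muscle level, and the highest follicular level, 1.97.

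Of 9 myeloid genes, 3 passed the unadjusted p under 0.05, all with lower levels at 3.0 Gy, beside 0.952% of all probes, and the median was -0.53 (-0.71 on the 5 arrays). The difference was above 0 for 2 of the 9 on 8 arrays and for 1 on 5, beside 36.2% and 53.6% of all probes. Cd163, the haemoglobin scavenger receptor of tissue macrophages, had levels of -2.01, -4.05, -2.06 and -1.34 at 3.0 Gy, against -1.79, -0.53, -0.83 and -0.61 at 0.84 Gy. Only 0.84 Gy rat 1 was within the range of the other group, and the difference was -1.42 (SE 0.53, 95% CI -2.51 to -0.34, limma p = 0.0121, adjusted p = 0.998, exact p = 0.0571) and -1.74 on the 5 arrays. Itgam, an integrin of macrophages and granulocytes, was lower without overlap, by -1.51 on 8 arrays (exact permutation p = 0.0286) and -0.98 on 5, but was well above background on only 2 and 3 arrays of the groups. Lyz2, lysozyme, differed by -0.91 (95% CI -1.77 to -0.06) and -1.37, and Csf1r, the receptor for macrophage colony-stimulating factor, by -0.77 and -0.98, with -0.40 by a second Csf1r probe.

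MHC class II genes, which antigen-presenting cells express, had a median difference of -0.52 over 8 genes and -0.77 on the 5 arrays. Of these genes, 2 had a difference above 0 on 8 arrays and 1 on 5, beside 36.2% and 53.6% of all probes. Ciita, the transactivator of these genes, was not well above background on any 3.0 Gy array and was on 3 of 4 at 0.84 Gy. Its level at 0.84 Gy was at least 1.69-fold higher, with an adjusted p of 0.998 in limma, the bound being the lowest signal well above background on each array. RT1-Da, a class II alpha chain, had levels of -0.33, -1.33, -0.24 and 0.10 at 3.0 Gy, against -0.44, 0.25, 0.83 and 0.90 at 0.84 Gy. The difference of RT1-Da was -0.84 on 8 arrays and -1.39 on 5. Cd74, the invariant chain, differed by -0.52 (95% CI -1.39 to 0.34) and -1.03. The 13 lymphoid genes had a median of -0.18 (-0.12 on the 5 arrays), and 0 passed the unadjusted p under 0.05, which 1.1% of all probes passed. Without 3.0 Gy rat 2 the medians of the fibroblast, myeloid and MHC class II lists were -0.52, -0.35 and -0.29, and the differences were -0.86 for Cd163, -0.76 for Pdgfra, -0.76 for Col1a1, -0.60 for Col3a1, -0.40 for Csf1r, -0.54 for RT1-Da and -0.24 for Cd74. With the mean levels of the follicular, slow muscle, cartilage and squamous lists as covariates, the same medians were -0.49, -0.30 and -0.59.

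**Figure D5:**
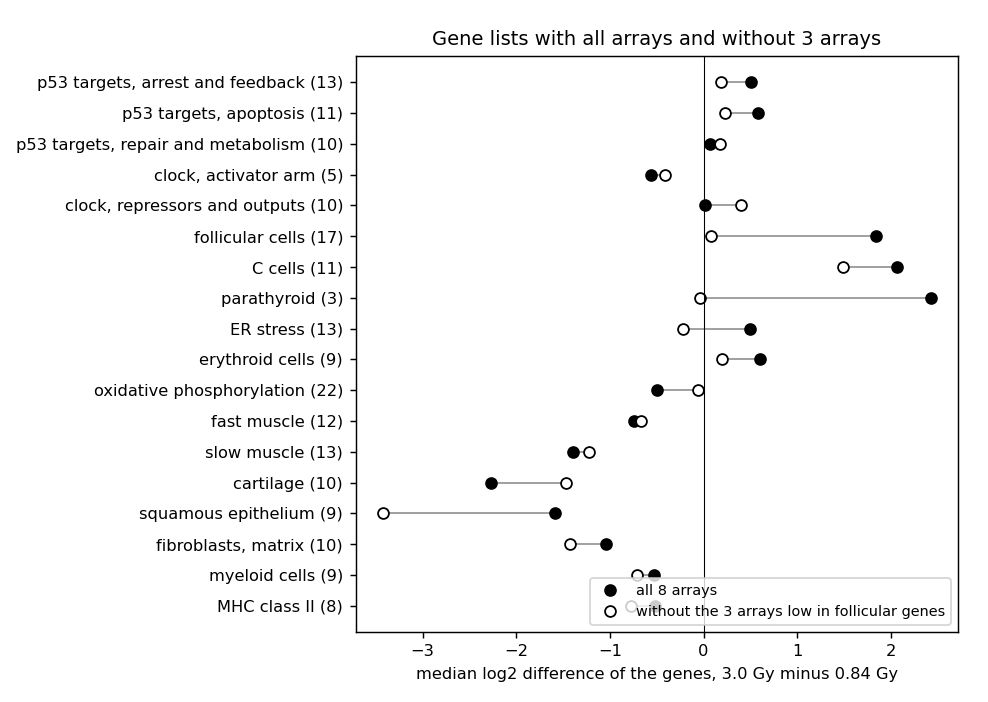
Median log2 difference, 3.0 Gy minus 0.84 Gy, of 18 gene lists on all 8 arrays (filled) and on the 5 arrays left without 0.84 Gy rats 1 and 2 and 3.0 Gy rat 3 (open), with the number of genes measured in brackets. The follicular median moved from 1.84 to 0.08 and the ER stress median from 0.50 to -0.22, while the fibroblast and matrix median lay at -1.04 and -1.43.

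The remaining tissue lists had no gene at an unadjusted p under 0.05, which 1.1% of all probes passed. Cartilage genes had a median of -2.27 over 10 genes (-1.47 on the 5 arrays), with Col2a1, the collagen of cartilage, at 0.66 and -0.99 in 0.84 Gy rats 2 and 3 and at most -2.89 elsewhere. Cnmd, chondromodulin, was also highest in 0.84 Gy rat 2, at 0.19. Squamous epithelium had a median of -1.59 over 9 genes (-3.42 on the 5 arrays), and Krt13, like Krt4 described above, was at 4.09 in 0.84 Gy rat 3 and at most -3.17 elsewhere. The medians were -0.21 for 11 genes of airway epithelium, -0.37 for 8 of adipose tissue, 0.16 for 7 of endothelium and -0.47 for 6 of Schwann cells, and -0.08, -0.70, 0.14 and -0.21 on the 5 arrays.

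In the lists of DNA damage signalling, the cell cycle and stress, 0 genes passed the unadjusted p under 0.05 on 8 arrays, which 1.1% of all probes passed. DNA damage signalling and repair had a median of 0.00 over 21 genes, and Mdc1, a scaffold at broken DNA, differed by 0.72 (95% CI -0.23 to 1.66). Cell cycle genes had a median of -0.08 over 20 genes (0.02 with quantile normalization), and -0.43 on the 5 arrays, where 2 genes had a difference above 0. Inflammation genes had a median of 0.35 over 10 genes. Nfkbia, the inhibitor of NF-kappa B, had levels of 2.25, 2.85, 0.93 and 2.04 at 3.0 Gy, against -0.12, 0.07, 1.90 and 1.75 at 0.84 Gy, a difference of 1.12 on 8 arrays and 0.55 on 5. Icam1, an adhesion molecule under NF-kappa B control, differed by 1.01 and 0.41. The lowest levels of both genes in each group were on the arrays low in follicular genes.

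Among redox genes the median was 0.22 over 13 genes. Srxn1, sulfiredoxin, a target of the antioxidant factor Nrf2, had levels of 3.47, 4.87, -0.30 and 4.71 at 3.0 Gy, against -0.88, 0.71, 2.93 and 3.58 at 0.84 Gy, a difference of 1.60 (95% CI -0.50 to 3.70) and of 1.09 on the 5 arrays. Gpx1, a glutathione peroxidase, differed by -0.84 (exact permutation p = 0.0571) and -0.72. ER stress genes had a median of 0.50 over 13 genes and of -0.22 on the 5 arrays, and the 22 genes of oxidative phosphorylation a median of -0.49 and of -0.05. Of the latter genes, 0 had a difference above 0 on 8 arrays and 4 on 5, beside 36.2% and 53.6% of all probes. Without the 3 arrays, the ER stress median was thus below 0 and that of oxidative phosphorylation close to it. Interferon genes had a median of 0.11 over 17 genes, glucocorticoid targets of -0.03 over 11 and immediate early genes of -0.31 over 13, and on the 5 arrays these medians had the opposite sign, at -0.014, 0.091 and 0.034. Heat shock and cold genes had a median of -0.19 over 8 (-0.06 on the 5 arrays). Jun, an immediate early transcription factor, differed by -0.54 (exact permutation p = 0.0857). With quantile normalization the medians of the heat shock and lymphoid lists were 0.06 and 0.04, so their direction depended on the scaling. Slc47a2, a proton antiporter for drugs and toxins, was not well above background on any of the 8 arrays.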

How the data were processed

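Total RNA of each thyroid was labelled with Cy3 and hybridised by the authors to 1-colour Agilent rat arrays, and the spots were read with Agilent Feature Extraction 10.7.3.1. The deposited intensity is the processed signal, with background and a spatial trend subtracted but no normalization between arrays. A second table deposited by the authors holds quantile normalized linear intensities and served as an alternative. Partek is named in the submitters' processing notes.

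Control spots and outlier spots were left out, the 75th percentile of the array was subtracted from log2 signals, and spots were averaged per probe (30367 probes, of which 17998 have a symbol of 15154 genes through RefSeq accessions). Where a gene had several probes, the one with the highest mean over the irradiated arrays was used. A probe was well above background where all its spots were marked so. Apart from control spots, which were not counted, no spot was saturated (0 of 58717 per array). The 99 probes lacking a value on some array were fitted on the others. Depth is not defined for arrays, and their number limits the precision.

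A limma (3.58.1, R 4.3.3) model with 1 mean for each of 8 irradiated groups was fitted to 32 arrays, which share 1 estimate of the spread (24 residual degrees of freedom), and p-values were adjusted over all probes. The study's methods compared exposed with unexposed glands in other software and named no covariates. The threshold is that of the study's methods. Exact permutation tests over rats (scipy 1.17.1) are two-sided. On simulated data, 98.3% of 116 large changes and 16.7% of 84 small ones among 30271 probes were called, with 4 unchanged probes called. Large meant at least 4 residual SDs of the probe. The noise was drawn independently for each probe, without the tissue differences that the real arrays share. These shares therefore check the fit and do not give its power on the real arrays. The labels number the animals within a group, and 1 rat gave 1 array, but whether rats of a group shared a cage is not given in the sources used here. Same-numbered rats of the groups did not deviate together (r of -0.18, -0.37, -0.65 and 0.50), so the numbers do not pair them.

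The comparison, the 31 gene lists and the tests were chosen with earlier results of these data known. Named were p53 targets with p under 0.05 or a fold change of 1.5, with Cdkn1a, Mdm2 and Aen in any case, up to 4 genes of each other list by p and the gene of its brightest probe, up to 10 probes per direction with an unadjusted p under 0.01, a fold change of 1.5, no overlap and signal well above background, and Dbp and Slc47a2. Not every gene the rule allows is printed. Alternatives were other normalizations, background correction, filters, blocks for slide (5 slides) and scan day (2), other models and leaving out rats.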

Additional observations from a re-analysis of the deposited data

Results flagged for a closer look

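Of 184 group values of 4 rats tested for a sample far from the others, 24 were flagged. Chance flags about 1 in 20 independent groups. These values came from the same arrays and in part from the same genes, so their number cannot be set against that rate. The array of 3.0 Gy rat 3 accounted for 18 of them. It was far below the other 3.0 Gy rats for Calca (-2.85, others 6.67 to 6.96), Cdkn1a (0.99, others 4.55 to 4.99), Duox2 (-2.88, others 2.13 to 2.79), Ephx1 (-1.30, others 2.83 to 3.26), Fas (-4.53, others -3.59 to -3.43) and Gdf15 (-4.79, others 2.71 to 4.08). The same held for Hhex (-2.23), Npas2 (-4.05), Pax8 (-4.43), Perp (-3.91), Pln (0.19), Pth (2.12) and Tg (4.11). The means of its lists were also low for p53 targets of apoptosis (-2.92), follicular cells (-3.43), airway epithelium (-5.38) and ER stress (0.47), and high for erythroid cells (1.96, others -0.81 to -0.66).

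The array of 3.0 Gy rat 2 was far below its group for Mb (2.84, others 6.59 to 7.24) and far above it for the squamous epithelium list (-4.03, others -5.63 to -5.47). The array of 0.84 Gy rat 1 was far below its group for Lyz2 (2.76, others 4.06 to 4.22), the adipose list (-2.54, others 0.24 to 0.76) and the inflammation list (-4.33, others -3.28 to -3.10). Fas was far above its group in 0.84 Gy rat 3 (-3.69, others -4.64 to -4.58).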

How the results depend on the processing

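The number of regulated transcripts was 0 in every alternative run, and the smallest adjusted p was 0.0166, without 3.0 Gy rat 3, and 0.0259 with array weights. The 55 transcripts at an unadjusted p under 0.01 became 18 with dim probes left out (fewer probes tested), 135 with the slide as a block, 97 with the scan day as a block, 294 with array weights and 143 with 4 tissue lists as covariates. They numbered 57 without the 3 arrays low in follicular genes. Leaving out 1 rat gave 32 (without 3.0 Gy rat 2) to 188 (without 3.0 Gy rat 3), with 34 without 0.84 Gy rat 2, 86 without 0.84 Gy rat 3 and 109 without 0.84 Gy rat 4. The cause of these shifts was not tested. With a replicate block for the animal numbers, which do not pair the samples, 46 were found. The differences of 49 of 61 genes kept their sign in every alternative other than the within-slide values, which had the opposite sign for 29 of 61 genes on the slide that held 3.0 Gy rat 3 and for 7 of 61 on the other. Without the 3 arrays, Ahsp went to -0.054, Dram1 to -0.27, Perp to -0.15, Pth to -0.070 and Tg to -0.21. With tissue covariates, Calca went to -0.40, Casr to -0.40 and Dram1 to -0.21. Other probes gave -0.23 for Cdkn1a, -0.39 for Zmat3 and 0.21, 0.68 and 0.34 for Spopfm2l2, of which the probe at 0.21 was not well above background on any array. Leaving out 1 rat moved Hba-a1 between -0.24 and 0.59 and Npas2 between -0.87 and 0.15, and both changed sign without 3.0 Gy rat 3. No named gene passed the adjusted threshold in any alternative, the smallest adjusted p being 0.220.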
